A study of Mus musculus with 18 samples.

Results

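The comparison set the 3 libraries labelled priSG-B, from testes of ICR mice at postnatal day 9, against the 3 libraries labelled priSG-A, from ICR testes at postnatal day 6. Every locus of the deposited noncoding RNA table that reached 1 FPKM (fragments mapped per kilobase of a transcript after scaling by library depth) in at least 3 of these 6 libraries was a member, which gave 1504 of 13218 loci. The filter used level only and not the difference between the types. Germ cells of both types were separated from the testis by STA-PUT, a sedimentation method that sorts cells largely by their size, and neither type carries a transgene or a treatment in the labels. The labels do not spell out the names; SG usually stands for spermatogonia in this field. They do not say how pure the fractions were or whether the 3 libraries of a type came from separate animals, so p-values reflect library-to-library spread that may be technical. The description of the series speaks of duplicates, whereas the labels give 3 libraries for each type, all of which were used. In bulk RNA of this kind, fewer cells of a type and less RNA per cell cannot be told apart.

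Spermatogonia are the germ cells that divide by mitosis in the tubules of the young testis, where type A cells include the stem cells and type B cells are the last generation before meiosis. Long noncoding RNAs do not encode proteins. Some host small nucleolar RNAs in their introns, some act at imprinted regions or at the X-inactivation centre, and many are transcribed from repeats or opposite to coding genes. B2 is a short interspersed repeat that derives from a transfer RNA and is copied by RNA polymerase III, whereas LINE-1 is a long repeat that encodes the proteins of its own retrotransposition. Germ cells are known for tight control of such elements.

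The libraries of the types differed in more than age. AY036118, a locus on chromosome 17 (39847113 to 39848035, mm10) that derives from ribosomal RNA, measured 9338, 6574.5 and 12910.5 FPKM at day 6, against 36.2, 27.2 and 23.0 FPKM in priSG-B. The groups did not overlap and the ratio of means was 334 (exact permutation test, two-sided, p = 0.1, the smallest that 3 against 3 libraries allow). Depth inferred from the table was 32 to 56.6 M (mega) fragments in priSG-A and 72.8 to 92.5 M in priSG-B, and the inferred fragment length was 200 to 210 bp and 230 to 240 bp. AY036118 level, depth and fragment length therefore separated the types completely and cannot be told apart from age. Across the 1504 loci on the log2 scale, the priSG-B libraries had Pearson's r of 0.955 to 0.986 with each other, a description across loci that are not independent. In priSG-A, replicates 1 and 2 had r of 0.916, and replicate 3 had r of 0.729 and 0.778 with them. That library had 1002 loci at 1 FPKM that no other of the 6 libraries reached, against 21 to 246 in the others, and 38.3% of the 1002 carried RIKEN names of adult testis clones (8.59% of the whole table). Results are given with and without it.

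At an adjusted p under 0.05 (limma on log2(FPKM + 1), Benjamini-Hochberg), 505 of the 1504 loci differed, or 33.6%. In priSG-B 273 loci rose (18.2%) and 232 fell (15.4%), and at all 505 the libraries of the types did not overlap. The libraries did not overlap at 781 loci in all (51.9%), 431 of them higher in priSG-B (28.7%) and 350 lower (23.3%). A log2 fold change of at least 1 was reached by 146 of the risen and 99 of the fallen loci, and the median over all tested loci was 0.02. On the log2(FPKM + 1) scale used for fold changes, the change of low loci is understated. Spread was estimated from the 6 libraries alone. With the spread of all 18 libraries of the series in the fit, 91 loci were called (6.05%), 73 higher (4.85%) and 18 lower (1.2%). All 91 were among the 505 in the same direction. That spread includes libraries that differ within their own type, so a call lost there can rest on spread outside the 6 libraries. AY036118 was 9242 FPKM in pacSC replicate 3, against 7.44 and 7.25 FPKM in replicates 1 and 2. In elST replicate 3 it was 7.41 FPKM, against 9351 and 1998 FPKM in replicates 1 and 2. Among the 44 loci named by rule, Gas5, Tug1, H19, Neat1, Airn, Meg3 and Malat1 had no call to lose. With all 18 libraries 24 of the others lost theirs, among them Gm47551, AY036118, Gm37750 and Terc. The small nucleolar RNA hosts Snhg6, Epb41l4aos, Snhg16, Snhg20 and Snhg1 were also among the 24. The count of 505 fell to 172, 173 and 145 without priSG-B replicates 1, 2 and 3 in turn.

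**Figure D1:**
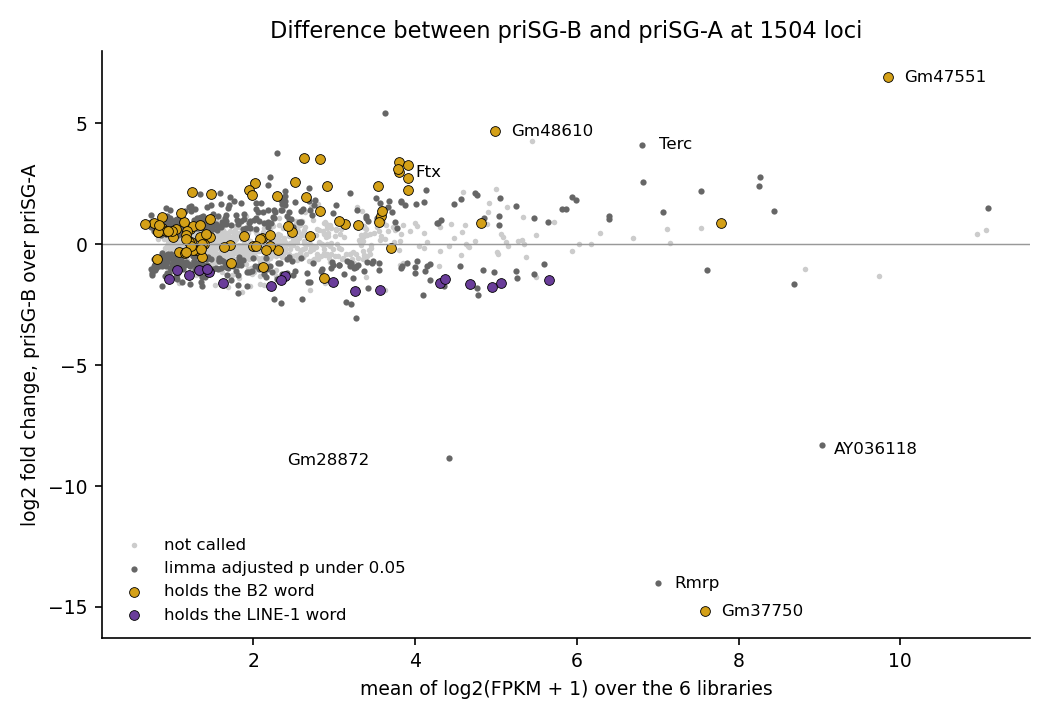
Log2 fold change of priSG-B over priSG-A against the mean level over the 6 libraries, 1 point per locus. Grey points are loci not called, dark points are called at a limma adjusted p under 0.05, and yellow and purple points hold the B2 or the LINE-1 word; the yellow points reach from Gm37750 at -15.2 to Gm47551 at 6.89, with 46 of 86 called higher, and all 19 purple points lie below 0.

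Without priSG-A replicate 3, 783 of the 1504 loci were called (52.1%), 431 higher (28.7%) and 352 lower (23.4%). Of the 505 loci called with all 6 libraries, 500 were called in the same direction without this library, and 5 were lost (Gm20634, Gm3892, 1010001N08Rik, Rps18-ps4 and Snhg8). Loci named in brackets beside a small count, here and further on, were chosen after their values were seen. A further 283 were gained, and none changed direction among loci called in both fits. At 142 of the 273 risen loci, replicate 3 lay farther from the priSG-B mean than the other priSG-A libraries did, and at 61 it lay nearest. At the 232 fallen loci the order was the other way, with 62 farthest and 80 nearest.

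**Figure D2:**
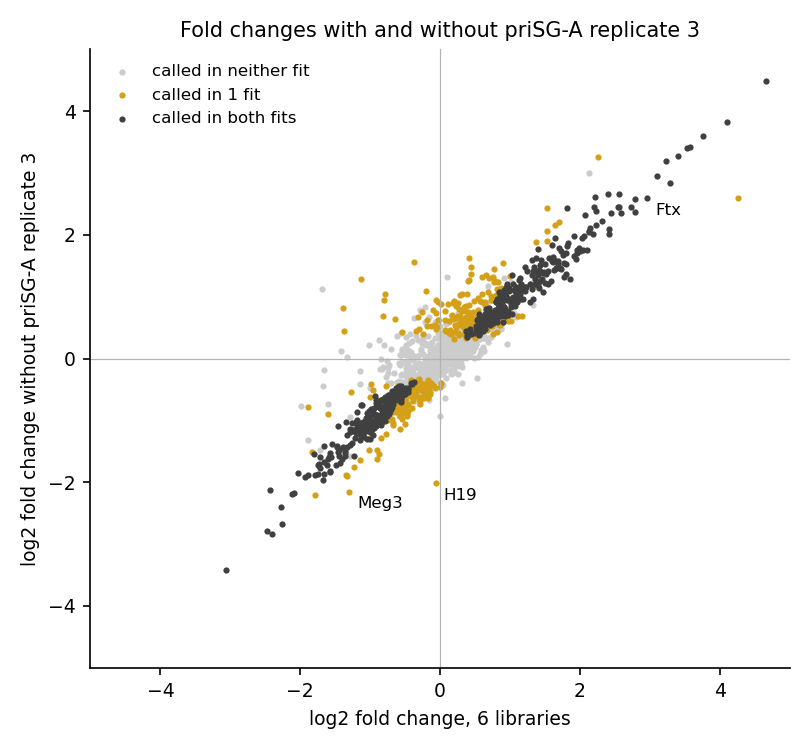
Log2 fold change with all 6 libraries (horizontal) against that without priSG-A replicate 3 (vertical), 1 point per locus, with 6 loci outside the axes. Dark points are the 500 loci called in both fits; H19 moves from -0.07 to -2.01.

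Among the most changed loci were short ones made of B2 sequence. Sequences are those of GENCODE M21 transcripts (GRCm38, the mm10 assembly), 5′ to 3′ on the transcript strand, and are shown because the same letters occur in loci that changed in opposite directions. Capitals mark the 25-base word carried by more of the tested loci than any other word of that length, a choice that did not use the direction of change. Gm47551 (chr13:98801172-98803736, plus strand) and Gm37750 (chr9:104053327-104053455, plus strand) are printed whole, and Gm48610 (chr12:4572401-4576756, minus strand) from base 237 to 381 of its 399.
Gm47551: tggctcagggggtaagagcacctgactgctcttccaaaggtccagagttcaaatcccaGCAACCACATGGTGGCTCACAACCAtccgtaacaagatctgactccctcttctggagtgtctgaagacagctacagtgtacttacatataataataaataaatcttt
Gm37750: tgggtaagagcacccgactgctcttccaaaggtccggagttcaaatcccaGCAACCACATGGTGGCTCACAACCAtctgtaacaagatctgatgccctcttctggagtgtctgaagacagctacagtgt
Gm48610: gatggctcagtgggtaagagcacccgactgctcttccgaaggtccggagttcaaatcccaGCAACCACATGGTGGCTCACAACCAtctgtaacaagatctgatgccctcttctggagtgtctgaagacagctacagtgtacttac
The longest identical run was 101 bp between Gm37750 and Gm48610, 50 bp between Gm47551 and Gm48610, and 41 bp between Gm47551 and Gm37750. Reads from such copies can be assigned to more than 1 place, and how reads with several matches were treated is not given in the sources used here.

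Gm47551, a 165-base transcript inside Fcho2 on the other strand, held 51.1, 256 and 44.1 FPKM at day 6 and 11595, 7654 and 11389.7 FPKM in priSG-B. Every priSG-B library lay above every priSG-A library, and the log2 fold change of 6.89 ± 0.69 (SE) was the largest rise (limma adjusted p = 0.00147). Its 165 bases, too, are fewer than any inferred fragment length, so its level is uncertain. In other types it was 1031 to 2151 FPKM where AY036118 was low and 0 to 171 FPKM where it was high, and with AY036118 level as a term its log2 fold change was 0.57 (limma adjusted p = 0.964). Gm37750 ran the opposite way. Its values were 9137, 123478 and 44539.8 FPKM in priSG-A, whereas every priSG-B library lists it at 0. Its 129 bases are fewer than the inferred fragment length of any of the 6 libraries, and at that length a 0 can be a failed estimate. Gm48610 went from 3.26, 11.1 and 3.85 FPKM to 152, 149 and 178 FPKM, and its log2 fold change was 4.67 ± 0.42 (limma adjusted p = 0.00112). In other types Gm48610 was 27.1 to 33.5 FPKM where AY036118 was low and 0.797 to 10.6 FPKM where it was high. With AY036118 level as a term its log2 fold change was 1.98 and it was not called (limma adjusted p = 0.306).

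Longer loci with the B2 word rose as well. The word or its reverse complement was found in 86 of the 1473 tested loci that have a transcript sequence (5.84%), against 218 of 13090 over the whole table (1.67%). Since the word was chosen as the most frequent among the tested loci, its larger share there is a description and not a result. Of the 86, 46 rose (53.5%, against 18.2% of all tested loci) and 4 fell (Gm37750, Gm10687, Gm10389 and 1 row of Snhg14), with a median log2 fold change of 0.58 against 0.02. Snhg14 counts as 3 loci here, since it has 3 rows with 1 sequence. The filter itself bears on this count. Of the 86, 18 reached it through priSG-B alone, with every priSG-A library under 1 FPKM, and 17 of these rose, while 3 reached it through priSG-A alone and 2 of these fell. Of the 65 that reached 1 FPKM in both types 29 rose (44.6%) and 2 fell (3.08%), against 14.3% and 10.7% of the 1296 such loci in all. Without priSG-A replicate 3, 49 of the 86 rose and 7 fell, where 28.7% and 23.4% of all tested loci did. The median was then 0.49 against 0.09. Without priSG-B replicate 1, 2 or 3 in turn, 28 of the 86 rose each time, against 118, 114 and 102 of all 1504. In the fit with all 18 libraries 24 of the 86 rose and none fell, where 4.85% and 1.2% of all did. Both orientations rose, with 20 of 41 loci that hold the word on the transcript strand and 26 of 45 that hold only its reverse complement. The libraries do not mark strand, so the orientation of the RNA was not measured.

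The risen B2 loci spanned lincRNAs and loci inside genes. Gm13075, an antisense locus, went from 0.579, 1.54 and 0.444 FPKM to 20.8, 17.9 and 22.6 FPKM. Its log2 fold change was 3.57 ± 0.27 (limma adjusted p = 0.000762). Gm12953, opposite Tmem69 with shared exon sequence, went from 2.85, 4.71 and 2.57 FPKM to 44.2, 38.9 and 50.5 FPKM (3.40 ± 0.26). Gm37214, inside Hhipl2 on the same strand, went from 0.697, 2.02 and 0.733 FPKM to 21.8, 21.9 and 25.4 FPKM (3.53 ± 0.28). In each of these every priSG-B library lay above every priSG-A library. BC051077, a lincRNA on chromosome 5 (117312518 to 117315645), rose from 0.650, 0.973 and 0.464 FPKM to 9.11, 8.05 and 9.39 FPKM. Its log2 fold change was 2.55 ± 0.19 (limma adjusted p = 0.000762). Ftx, Dleu2 and Snhg17, described below under their own groups, hold the word too. Of the 77 B2-word loci of 1000 bp or more, 39 rose (50.6%) and 3 fell (3.9%), against 16% and 16.2% of all tested loci of that length.

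The summed level of the 84 B2-word loci of 300 bp or more was 330.3, 472 and 465 FPKM in priSG-A and 1080.5, 1042 and 1193 FPKM in priSG-B. The same sum moved with AY036118 outside this comparison. In the 3 libraries of other types that were also below 100 FPKM of AY036118 it was 743 to 772 FPKM, and in the 9 that were above it was 236 to 437 FPKM. With the AY036118 level as a term in a fit of all 18 libraries, 61 of the 86 fold changes were above 0 and the median was 0.40. In that fit 7 of the 86 rose (among them Gm13075 and BC051077) and 1 fell (4930520O04Rik), against 20 and 20 of all 1504 loci. That term rests on the pacSC and elST libraries, where both levels of AY036118 occur within a type. The part of AY036118 level in the B2 result was not tested beyond these values.

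LINE-1 sequence was found on the falling side. A pair of fallen loci is shown around their shared word in capitals, Gm48309 (chr12:13423260-13425717, minus strand, bases 809 to 953 of its transcript) and Gm47457 (chr12:68435808-68440282, minus strand, bases 1 to 128). The letters are those of the first open reading frame of LINE-1, as far as they can be named without a repeat annotation.
Gm48309: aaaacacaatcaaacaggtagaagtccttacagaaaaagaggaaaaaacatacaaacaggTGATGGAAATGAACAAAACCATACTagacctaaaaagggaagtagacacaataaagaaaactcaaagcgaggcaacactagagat
Gm47457: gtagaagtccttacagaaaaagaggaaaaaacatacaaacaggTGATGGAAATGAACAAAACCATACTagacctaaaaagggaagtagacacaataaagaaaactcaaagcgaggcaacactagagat
This word was chosen after the values were seen, as the 25-base word on the most fallen loci, so its direction is a description and not a result. It was held by 19 tested loci, and all 19 were lower (15.4% of all tested loci), with log2 fold changes from -1.94 to -1.04 and a median of -1.47. Gm48309 held 91.4, 39.4 and 49.9 FPKM at day 6 and 15.8, 17.4 and 13.8 FPKM in priSG-B. The fallen loci lay on several chromosomes, among them the Y-linked Gm37158, with 51.0, 22.6 and 32.7 FPKM against 10.5, 11.6 and 9.12 FPKM.

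The summed level of the 19 LINE-1 loci was 608, 276 and 388 FPKM in priSG-A and 123, 135 and 107 FPKM in priSG-B. Unlike the B2 sum, it did not divide the other types by AY036118, with 382 to 418 FPKM in the 3 low libraries and 213 to 1083 FPKM in the 9 high ones. All 19 were called lower without priSG-A replicate 3 too, where 23.4% of all tested loci were. Without priSG-B replicates 1, 2 and 3 in turn, 5, 6 and 4 of them were called, and 16 without priSG-A replicate 1. Of all 1504 loci, 54, 59, 43 and 215 were called lower in these fits. In the fit with all 18 libraries 2 of the 19 were called, where 1.2% of all were called lower. With AY036118 level as a term none of the 19 was called, with a median of -0.81. After rescaling without AY036118, Gm42418 and Rmrp 1 was called, with a median of -0.72 where that of all loci was 0.63. Of the 19, 6 reached the filter through priSG-A alone. Near-identical copies elsewhere in the genome share these reads, so the values cannot be assigned to single loci.

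**Figure D3:**
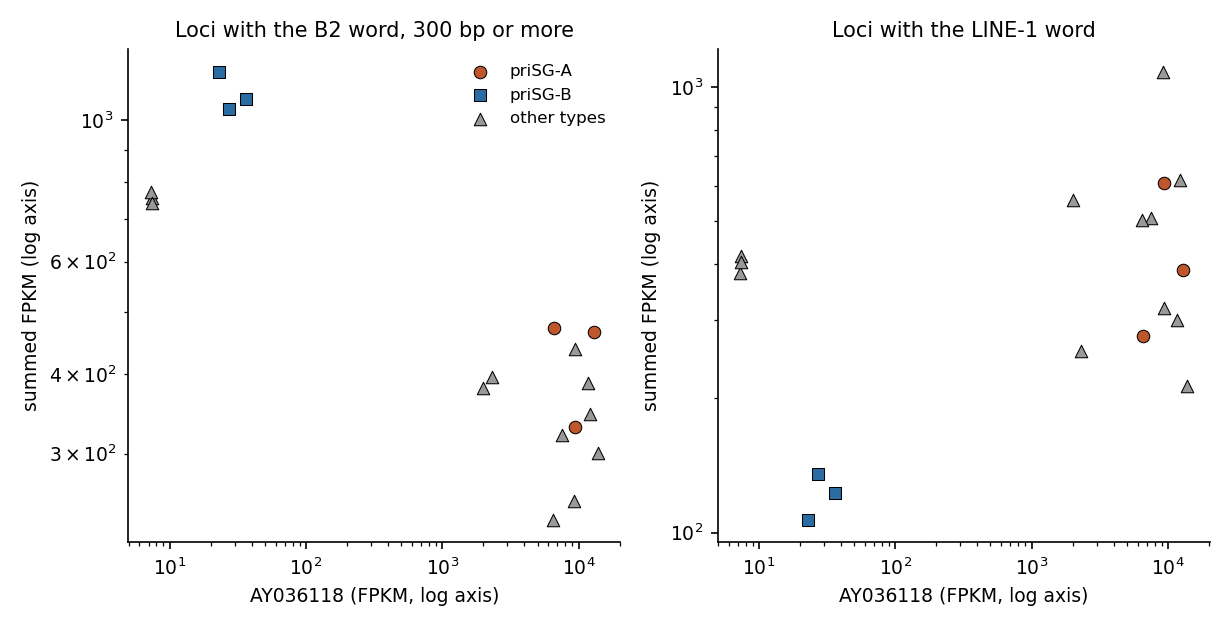
Summed FPKM of the 84 B2-word loci of 300 bp or more (left) and the 19 LINE-1-word loci (right) in each of the 18 libraries, against AY036118, all on log axes. Circles are priSG-A, squares priSG-B and triangles the other 4 cell types; on the left all 6 libraries low in AY036118 lie above all 12 others, and on the right only the 3 priSG-B libraries lie at 107 to 135 FPKM.

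Other loci with large rises included known RNAs. Terc, the RNA template of telomerase on chromosome 3 (96414437 to 96414833), went from 12.8, 77.5 and 17.2 FPKM to 491, 392 and 524 FPKM. All priSG-B libraries were above all priSG-A libraries, and the log2 fold change was 4.11 ± 0.65 (limma adjusted p = 0.00675). Terc was not called in the fit with all 18 libraries (limma adjusted p = 0.158). In the other types it was 34.8 to 43.9 FPKM where AY036118 was low and 0 to 97.8 FPKM where it was high, so the priSG-B values stood above all 15 other libraries.

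Ftx, which lies in the X-inactivation centre and takes part in the control of Xist (chromosome X, 103560907 to 103623790), went from 5.15, 5.80 and 1.98 FPKM to 37.6, 34.0 and 42.7 FPKM. The log2 fold change was 2.96 ± 0.35 (limma adjusted p = 0.00297), and it was 2.59 without priSG-A replicate 3. In the other types Ftx was 5.01 to 5.43 FPKM in the 3 libraries low in AY036118 and 0.744 to 4.75 FPKM in the 9 high ones. All of these lay below the priSG-B values. With AY036118 level as a term in the fit of all 18 libraries, the log2 fold change of Ftx was 1.95 and it was not called. Xist, the RNA that coats the inactive X chromosome of females, was 0.0646 to 0.217 FPKM in the 6 libraries and was not tested. Of the 5 listed loci of the X-inactivation centre 4 were in the table, and Ftx alone passed the level filter.

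Gm12744 on chromosome 4 (106587097 to 106589108) rose from 0.389, 0.570 and 0.0702 FPKM to 16.3, 17.96 and 16.6 FPKM, and the log2 fold change was 3.76 ± 0.21 (limma adjusted p = 0.000228). Appbp2os, opposite Appbp2 with shared exon sequence, rose from 2.65, 6.24 and 3.70 FPKM to 46.9, 52.7 and 39.5 FPKM (3.24 ± 0.30, limma adjusted p = 0.00114). Reads of Appbp2os cannot be told apart from those of Appbp2. Rab26os rose from 10.1, 23.5 and 6.85 FPKM to 57.3, 50.9 and 55.5 FPKM (2.11 ± 0.43), and its call was lost without any 1 of the priSG-B libraries (highest limma adjusted p = 0.0629). Gm42687 is 164 bases long and was listed at 0, 5.61 and 0 FPKM at day 6 and at 39.3, 94.8 and 136 FPKM at day 9 (5.43 ± 0.83, limma adjusted p = 0.00632). Its length is below any inferred fragment length, so a 0 can be a failed estimate and its level is uncertain. Its call was lost with estimated library weights (limma adjusted p = 0.0658), with AY036118 level as a term (0.643) and with no filter (0.140).

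Of the small nucleolar RNA host genes tested, 11 of 17 rose in priSG-B. Their introns carry the guide RNAs that direct the modification of ribosomal RNA, and the spliced exons are often degraded. Of 23 listed hosts 19 were in the table and 17 passed the filter. The 11 that rose were 64.7%, against 18.2% of all tested loci, none fell, and the median log2 fold change was 1.16 against 0.02. Without priSG-A replicate 3, 11 rose and Snhg18 fell, where 28.7% and 23.4% of all tested loci rose and fell. Among the risen, Snhg3 was then in place of Snhg8. The list was chosen with earlier results of these data known, so its direction is not independent evidence.

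Snhg6 had the largest change of the hosts, from 10.8, 21.7 and 7.997 FPKM to 55.5, 50.4 and 56.9 FPKM (log2 fold change 2.04 ± 0.37, limma adjusted p = 0.00946). Epb41l4aos, which hosts a small nucleolar RNA despite its antisense name, went from 5.27, 9.61 and 5.95 FPKM to 26.7, 24.5 and 24.0 FPKM (1.75 ± 0.26). Snhg16 went from 4.71, 7.75 and 4.70 FPKM to 20.7, 19.7 and 20.1 FPKM (1.69 ± 0.24, limma adjusted p = 0.00539). In each of these the priSG-B libraries lay within a narrow range above all 3 priSG-A libraries. Snhg20 went from 5.97, 12.2 and 7.17 FPKM to 27.8, 23.9 and 31.3 FPKM (1.65 ± 0.29). The calls of Snhg6 and Snhg20 were lost without priSG-B replicate 3 (limma adjusted p = 0.0503 and 0.0530).

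Snhg1, an abundant host of several guide RNAs, went from 37.5, 54.1 and 19.1 FPKM to 90.0, 91.2 and 106 FPKM (1.47 ± 0.40, limma adjusted p = 0.0305). Its call was lost without priSG-A replicate 1 and without any 1 of the priSG-B libraries (highest limma adjusted p = 0.115). Zfas1, Snhg15, Snhg17, Snhg10, Snhg8 and Snhg12 rose by 0.87 to 1.58. The most abundant host, Gas5, was 126, 144 and 74.6 FPKM against 166, 166 and 177 FPKM, without overlap, and missed the threshold (0.61 ± 0.32, limma adjusted p = 0.194). Snhg4 and Snhg5 were at limma adjusted p of 0.0573 and 0.0530. Snhg18 was 4.93, 5.44 and 2.87 FPKM against 2.53, 2.77 and 2.27 FPKM, and was not called with all 6 libraries (limma adjusted p = 0.106). It was called lower without priSG-A replicate 3 (limma adjusted p = 0.00629) and with estimated library weights (0.0139), and its log2 fold change was 0.15 after rescaling. Snhg3 and Dancr overlapped between the types.

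The hosts' calls depended on the libraries in the fit. Without priSG-B replicates 1, 2 and 3 in turn, 5, 5 and 3 of the 17 were called, and none was called in the fit with all 18 libraries. Of all 1504 loci, 172, 173, 145 and 91 were called in these fits. With AY036118 level as a term, the median was 0.42 and 11 of 17 fold changes were above 0. Those of Epb41l4aos and Snhg16 turned to below 0 in that fit. The summed level of the 17 hosts was 304, 421 and 219 FPKM in priSG-A and 642, 627 and 698 FPKM in priSG-B. In other types it was 232 to 252 FPKM where AY036118 was low and 71.5 to 449 FPKM where it was high. The 3 other low libraries thus lay within the range of the high ones. All 17 hold an annotated small nucleolar RNA gene on their strand, and so do 15 tested loci outside the list. Of the 15, 5 rose and 2 fell, where 18.2% and 15.4% of all tested loci did (the fallen are 1 row of Snhg14, and Gm45740, which holds the LINE-1 word).

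**Figure D4:**
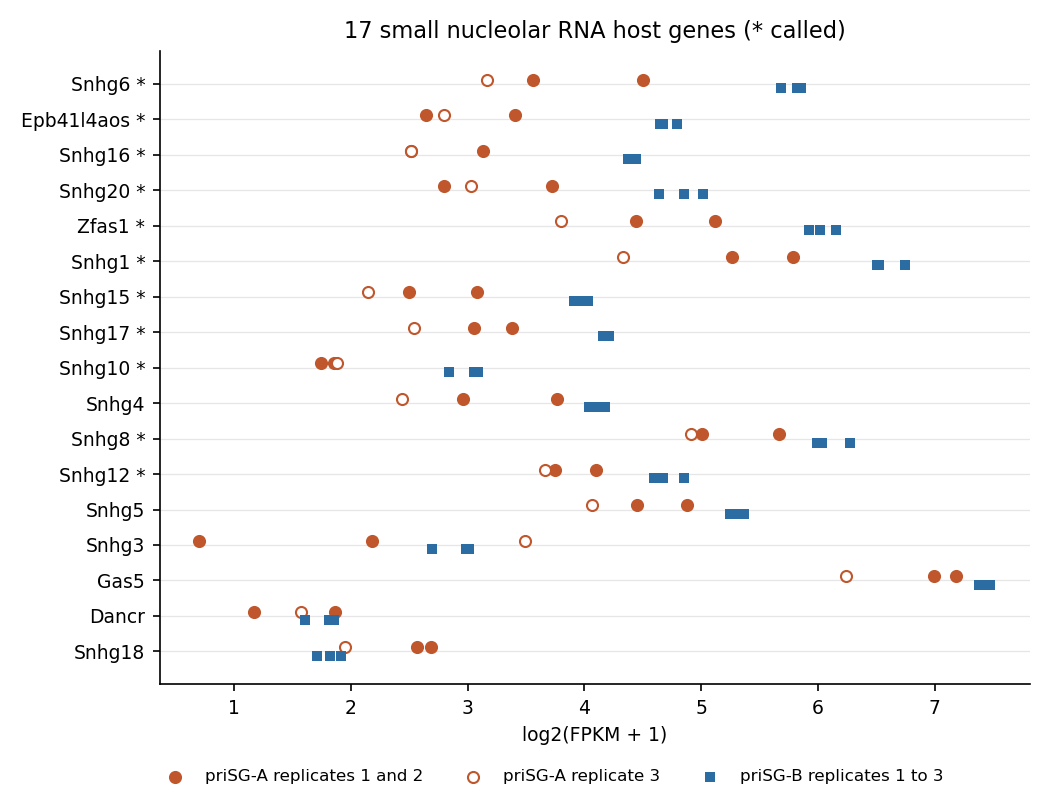
Level of the 17 tested small nucleolar RNA host genes on the log2(FPKM + 1) scale, 1 symbol per library; filled circles are priSG-A replicates 1 and 2, open circles priSG-A replicate 3 and squares priSG-B. An asterisk marks the 11 called higher; at Snhg18 the squares lie lowest.

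Host genes of this kind often start in a run of pyrimidines, which the promoter sequences allow to be looked for. The 4 hosts below had the letters CCTTT (capitals; CCTTT only, on the gene's strand, from 10 bases before to 15 after the start) among the 14 hosts with a promoter in the RefSeq-based table (GRCm38.p6). Of all 32851 promoters 2.67% had it in the same window. Each line gives 70 bases around the start on the gene's strand.
Gas5 (chr1:161035131-161035200, plus strand): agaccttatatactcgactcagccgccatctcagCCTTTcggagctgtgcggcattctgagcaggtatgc
Snhg12 (chr4:132308643-132308712, plus strand): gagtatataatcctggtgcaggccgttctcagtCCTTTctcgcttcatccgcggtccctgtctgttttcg
Snhg16 (chr11:116671625-116671694, plus strand): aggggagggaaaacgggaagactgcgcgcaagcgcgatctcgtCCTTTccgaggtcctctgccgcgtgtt
Snhg10 (chr12:105032245-105032314, minus strand): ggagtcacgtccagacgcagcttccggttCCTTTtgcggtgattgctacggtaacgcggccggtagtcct
Snhg12, Snhg16 and Snhg10 rose and Gas5 missed the threshold. The calls of hosts without the letters were not set beside these, so whether the letters go with the calls was not tested. A match of letters describes the sequence and not a site of control.

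The largest falls were of abundant structural RNAs and of short loci. AY036118 fell by 8.30 ± 0.37 on the log2 scale (limma adjusted p = 0.000192). Gm42418, which overlaps AY036118 on the other strand and also derives from ribosomal RNA, went from 493, 765 and 1027 FPKM to 256, 237 and 199 FPKM (log2 fold change -1.66 ± 0.36, limma adjusted p = 0.0161). Its call was lost without any 1 of the priSG-B libraries (highest limma adjusted p = 0.0850). Rmrp, the RNA of the RNase MRP enzyme that processes ribosomal RNA precursors, held 5423, 54480.3 and 15181 FPKM at day 6 and 0 in each priSG-B library. Gm28872, of 158 bases, was 981, 418 and 233 FPKM against 0 in all 3. Rmrp (281 bases) and Gm28872 are close to or below the inferred fragment length, so a 0 there can also be a failed estimate, and no fold is given. Rmrp was 51841 to 66814 FPKM in the 3 other libraries low in AY036118.

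Among longer loci, 1700026F02Rik on chromosome 8 (70948246 to 71085758) went from 26.9, 44.9 and 15.6 FPKM to 0.692, 4.21 and 3.19 FPKM (log2 fold change -3.06 ± 0.53, limma adjusted p = 0.00922). Gm12915 went from 7.33, 9.90 and 17.2 FPKM to 1.298, 1.57 and 0.774 FPKM (-2.43 ± 0.33). The 302-base Gm42428 and the 287-base Gm48275 fell by 2.47 and 2.40, and were highest in priSG-A replicate 1, at 52.6 and 52.4 FPKM. Ccdc142os, opposite Ccdc142, went from 7.81, 5.23 and 10.9 FPKM to 2.18, 3.47 and 2.31 FPKM (-1.27 ± 0.29). Gm42428, Gm48275 and Ccdc142os were not called without any 1 of the priSG-B libraries (highest limma adjusted p = 0.0777, 0.0930 and 0.0946).

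Imprinted transcripts, which are made from only 1 parental copy, included loci that varied widely within priSG-A. Of 18 listed 12 were in the table, on 10 tested rows, of which 1 rose (10%) and 3 fell (30%), against 18.2% and 15.4% of all tested loci, and 2 of the fallen, Kcnq1ot1 and Peg13, reached the filter through priSG-A alone. The median was -0.32, and 0.18 after rescaling, where that of all loci was 0.63. Without priSG-A replicate 3, 7 of the 10 fell and 1 rose, against 23.4% and 28.7% of all. H19, an RNA made from the maternal copy and abundant in fetal and mesenchymal tissue, was 234, 82.4 and 1.45 FPKM in priSG-A and 33.7, 32.7 and 34.8 FPKM in priSG-B. The priSG-B values thus lay inside the priSG-A range, and the difference missed the threshold (-0.07 ± 1.55, limma adjusted p = 0.984). Without replicate 3 the log2 fold change was -2.01 (limma adjusted p = 0.0143), whereas without replicate 1 and without replicate 2 of priSG-A it was 1.28 and 0.53.

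Meg3, a maternally expressed RNA of the Dlk1 region, was 18.9, 8.57 and 1.33 FPKM in priSG-A and 2.24, 2.23 and 1.85 FPKM in priSG-B (limma adjusted p = 0.217, and 0.00463 without replicate 3). Rian, from the same region, was 19.6, 16.5 and 2.27 FPKM against 14.2, 14.3 and 14.4 FPKM and was not called with or without that library. Kcnq1ot1, the antisense RNA that silences its neighbours on the paternal copy, fell from 2.84, 1.99 and 1.53 FPKM to 0.882, 0.974 and 0.770 FPKM (-0.71 ± 0.19, limma adjusted p = 0.0297). Its call was lost without priSG-A replicate 2 and without any 1 of the priSG-B libraries. Airn, the antisense RNA at Igf2r, was 5.49, 3.06 and 1.03 FPKM against 1.73, 1.58 and 1.79 FPKM, an overlap that rests on replicate 3 (limma adjusted p = 0.415, and 0.0148 without it). Peg13 fell by 0.55 on the log2 scale (limma adjusted p = 0.0278), a call that was lost without any 1 of the priSG-B libraries.

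Snhg14, the long host transcript of the Prader-Willi and Angelman region, stood on 3 rows of the table with different coordinates. The row at 59937371 to 59975759 of chromosome 7 rose from 0.841, 1.32 and 0.484 FPKM to 1.97, 1.88 and 2.42 FPKM (0.74 ± 0.20, limma adjusted p = 0.0316). The row at 59619158 to 59874749 fell from 7.22, 3.24 and 5.18 FPKM to 2.15, 2.49 and 1.80 FPKM (-0.94 ± 0.28, limma adjusted p = 0.0393). The third row was not called (limma adjusted p = 0.804). All 3 rows carry the same identifier, so direction depended on the stretch measured, and both calls were lost without priSG-A replicate 1 and without any 1 of the priSG-B libraries.

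Of 7 listed nuclear RNAs, 6 were tested and none rose, where 18.2% of all tested loci did. Kcnq1ot1 alone fell (16.7%, against 15.4% of all), and it reached the filter through priSG-A alone. The median was -0.28 against 0.02. Malat1, an abundant RNA of nuclear speckles, was 2854, 1393 and 616 FPKM in priSG-A and 571, 605 and 448 FPKM in priSG-B. The groups did not overlap, yet the fold change of -1.33 ± 0.57 did not pass (limma adjusted p = 0.121, and 0.0126 without replicate 3). Neat1, the scaffold of paraspeckles, was 8.13, 11.3 and 11.3 FPKM against 8.61, 8.27 and 5.65 FPKM (limma adjusted p = 0.257). Tug1, whose loss impairs male fertility in mice, was 25.4, 33.0 and 31.0 FPKM against 37.0, 36.6 and 37.1 FPKM (0.31 ± 0.22, limma adjusted p = 0.334). Firre and 2900097C17Rik overlapped between the types.

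Of 21 listed microRNA host transcripts 17 were in the table and 8 were tested, of which 3 rose (37.5%) and 1 fell (12.5%), against 18.2% and 15.4% of all tested loci, with a median of 0.47. Mir17hg, the precursor of the growth-promoting miR-17-92 cluster, went from 0.862, 2.81 and 2.15 FPKM to 4.36, 4.18 and 4.65 FPKM (0.94 ± 0.29, limma adjusted p = 0.0446). Dleu2, host of miR-15a and miR-16, went from 6.44, 8.09 and 8.34 FPKM to 15.8, 15.4 and 14.1 FPKM (0.91 ± 0.20, limma adjusted p = 0.0178). Mir9-3hg rose by 0.62. Mir99ahg, host of miR-99a, let-7c and miR-125b, fell from 16.8, 8.87 and 6.61 FPKM to 3.01, 2.67 and 2.50 FPKM (-1.57 ± 0.33, limma adjusted p = 0.0154). None of these 4 was called without any 1 of the priSG-B libraries, nor was Mir9-3hg without priSG-A replicate 1.

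The list of growth and stress transcripts had 8 tested of 26, with 1 rise (Epb41l4aos), no fall and a median of 0.35. The rise was 12.5% of the 8, where 18.2% of all tested loci rose and 15.4% fell. Pvt1, beside Myc, was 1.17, 0.820 and 2.41 FPKM against 0.761, 0.518 and 0.586 FPKM and did not reach the filter. Of 19 transcripts named in work on spermatogenesis 3 were tested and 1 rose (33.3%, against 18.2% of all tested loci). That was Gm2044, from 8.81, 5.55 and 4.43 FPKM to 13.5, 14.3 and 16.3 FPKM (1.15 ± 0.27, limma adjusted p = 0.0210). Its call was lost without any 1 of the priSG-B libraries. Of the 5 RNase and telomerase RNAs 2 were tested, Terc and Rmrp, which went opposite ways.

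The label of the cells could be checked only in part, because none of the 34 listed spermatogonial markers is itself in this noncoding table. Loci that share exon sequence with a marker gene were taken in its place, since reads cannot be told apart by strand. Gm16277, at the stem cell receptor gene Gfra1, rose from 0.539, 1.05 and 0.813 FPKM to 2.98, 2.74 and 2.67 FPKM (1.09 ± 0.17, limma adjusted p = 0.00657). Gm20402, at Foxo1, rose from 2.30, 4.36 and 1.99 FPKM to 9.49, 9.66 and 7.13 FPKM (1.37 ± 0.28, limma adjusted p = 0.0138). Gm45058, at Nanos2, was 0.440, 0.443 and 0.0777 FPKM against 1.46, 0.898 and 1.73 FPKM and was below the filter. Gm43126, at Ccnd2, was the other tested stand-in, with 22.6, 9.80 and 2.58 FPKM against 10.1, 9.48 and 8.13 FPKM, an overlap (limma adjusted p = 0.947). Gm49291, at Id4, was 0.0561 to 0.205 FPKM against 0.000698 to 0.0732 FPKM, also an overlap. Gfra1, Foxo1, Nanos2 and Id4 mark undifferentiated spermatogonia, and no stand-in for Kit or Stra8, which mark differentiating ones, was in the table. The 12 spermatogonial stand-ins summed to 26.6, 16.9 and 5.90 FPKM in priSG-A and 25.5, 25.03 and 21.2 FPKM in priSG-B.

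Loci listed for somatic cells went both ways. Of 27 listed somatic and mesenchymal transcripts 20 were in the table and 5 were tested. Of these 1 fell and none rose, where 15.4% of all tested loci fell, and 4 of 5 fell without priSG-A replicate 3, where 23.4% of all did. The fifth, 2610035D17Rik, had a log2 fold change of 0.23. Among members below the filter, Hotairm1 was 0.0607 to 0.109 FPKM against 0.523 to 1.51 FPKM and Lhx1os 0 to 0.449 against 0.978 to 1.38. Hoxb3os was 0.136 to 0.363 FPKM against 0.718 to 0.829, and Fendrr 0.253 to 0.307 against 0.408 to 0.468. These were higher in priSG-B without overlap, though Lhx1 itself is on the list of spermatogonial markers. Lower without overlap were Hoxd3os1, 0.513 to 12.4 FPKM against 0.264 to 0.336, and Dnm3os, 0.372 to 1.72 against 0.301 to 0.327. Wt1os, beside the Sertoli cell gene Wt1, fell from 1.69, 2.25 and 1.76 FPKM to 0.763, 0.682 and 0.787 FPKM (-0.73 ± 0.14, limma adjusted p = 0.0112), a call lost without any 1 of the priSG-B libraries. Carmn, an RNA of smooth muscle, was 17.3, 2.46 and 2.32 FPKM against 0.740, 0.777 and 0.658 FPKM (limma adjusted p = 0.0740). Gm48529, which shares sequence with the smooth muscle gene Tagln, fell from 9.00, 3.89 and 5.13 FPKM to 1.70, 2.27 and 1.69 FPKM (-1.22 ± 0.29, limma adjusted p = 0.0222). Gm47123, at Ctsl, fell by 0.57, and Gm49442, at the Sertoli cell gene Dhh, was not called (limma adjusted p = 0.919).

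The 20 somatic list members summed to 279, 101 and 24.5 FPKM in priSG-A and to 44.6, 42.9 and 45.5 FPKM in priSG-B. H19 made most of each sum except in priSG-A replicate 3, where it was 1.45 FPKM and Hoxd3os1 was 12.4 FPKM. The stand-ins for Sertoli cells (2) summed to 5.83, 12.8 and 7.09 FPKM against 7.44 to 7.61 FPKM, those for Leydig cells (4) to 5.82, 1.71 and 0.829 FPKM against 0.602 to 0.981 FPKM. Their part in the falls of priSG-B was not tested. Some loci of later germ cells stood out in priSG-A replicate 3 alone. 1700027A15Rik, which shares sequence with the spermatid gene Tnp1, was 11.8 FPKM there and 0 to 0.139 FPKM in the other 5. Gm10501, at Hspa1l, was 8.01 FPKM against 0.978 to 1.99 FPKM, and 4931419H13Rik, at the spermatocyte gene Ccna1, was 1.87 FPKM against at most 0.0403 FPKM. D630011A20Rik, at Spaca7, was 0.299 FPKM there and 0 in the other 5. Stand-ins at the spermatid genes Gapdhs and Crem did not stand out there. Tmem147os, at Gapdhs, was 1.36, 2.56 and 2.48 FPKM in priSG-A and 2.77 to 3.06 FPKM in priSG-B. Gm6225, at Crem, was 1.23, 0.620 and 1.29 FPKM in priSG-A and 0.415 to 0.539 FPKM in priSG-B. Spermatids have not yet formed in the mouse testis at this age, so the loci high in replicate 3 alone go against the label of that library.

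**Figure D5:**
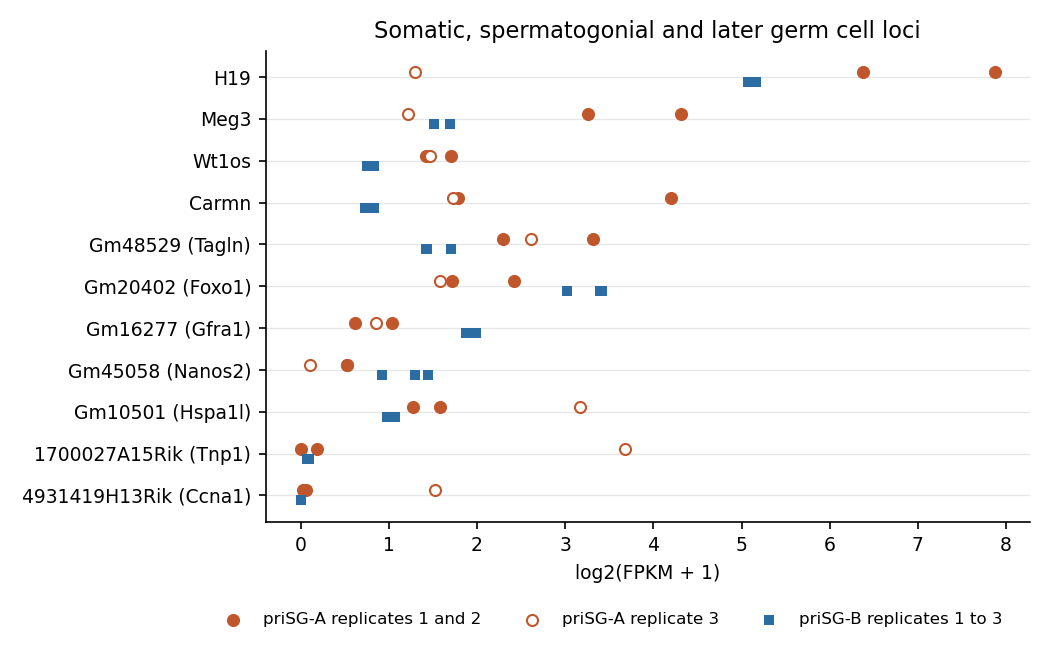
Level on the log2(FPKM + 1) scale of loci of somatic cells (top), stand-ins for spermatogonial genes (middle) and for later germ cell genes (bottom), with the marker gene in brackets. Filled circles are priSG-A replicates 1 and 2, open circles replicate 3 and squares priSG-B; the open circle lies lowest at H19 and far above the rest at 1700027A15Rik.

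The direction of change differed between kinds of loci, described here by counts beside the 18.2% risen and 15.4% fallen of all. Loci that share exon sequence with a coding gene on the other strand had 116 risen and 56 fallen of 608 (19.1% and 9.21%). Loci that overlap a coding gene without shared exon sequence, where reads can come from unspliced RNA of that gene, had 39 risen and 76 fallen of 342 (11.4% and 22.2%). Outside coding genes 108 rose and 96 fell of 489. Of the 56 bidirectional promoter loci, which start opposite a coding gene's promoter, 12 rose and 1 fell (4833438C02Rik), and of the 46 sense intronic loci 4 rose (Gm14222, Gm37214, Gm47587 and D130062J10Rik) and 11 fell. On chromosome X 6 of 28 rose and 4 fell (2010204K13Rik, G530011O06Rik, Gm15298 and Gm28268), with a median of 0.67 against 0.02 on the autosomes, and both tested loci of chromosome Y, Gm47283 and Gm37158, fell. Loci of 1 exon had 96 risen and 114 fallen of 618, and those of 2 or more exons 176 and 118 of 884.

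The RIKEN clones of the adult testis prefixes had 9 risen and 13 fallen of 99 with all libraries, and 34 and 15 without priSG-A replicate 3, where 28.7% and 23.4% of all tested loci rose and fell. At the edge of the filter, the third highest of the 6 values was 1.0002 FPKM in Gm38155, just inside, and 0.9991 FPKM in Gm43378, just outside.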

How the data were processed

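RNA of ICR mouse testis germ cells was measured in 18 libraries, 3 for each of 6 types, of which the 3 priSG-A and 3 priSG-B libraries are compared here. The authors deposited FPKM for 13218 loci; HISAT2, StringTie and the mm10 build appear in the submitters' processing notes, without versions. How strand and multiple matches were handled is not given in the sources used here, and the TruSeq RNA kit of the labels' protocols keeps no strand. Identifiers were matched to GENCODE M21 (13191 of 13218). Depth was inferred from FPKM steps in single-exon loci, of which 94.5 to 97.8% were whole within 0.02 fragments. Depth limits precision at low levels.

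Loci at 1 FPKM or more in 3 of the 6 libraries were tested on log2(FPKM + 1) with limma 3.58.1 (R 4.3.3; trend, robust, two-sided), Benjamini-Hochberg over 1504 loci, threshold 0.05; the script was tested on simulated data. A count test was not used, since the values are FPKM. Samples were grouped by the cell type label. Alternatives were pseudocount, filter, scaling, weights, all 18 libraries, AY036118 term, replicate block and each library left out. Named loci were the 8 largest rises and falls called with and without priSG-A replicate 3 at a mean of 5 FPKM in the higher type, up to 8 more each way with a gene name, up to 4 called members of each list, and 16 fixed names. Other loci named as list members, stand-ins, B2 or LINE-1 loci were chosen after their values were seen. Members and lists were chosen with earlier results of these data known. Tables and plots used Python 3.11.15, pandas 2.3.3 and matplotlib 3.10.9.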

Additional observations from a re-analysis of the deposited data

How the results depend on the processing

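The count of 505 called loci was 22 with no filter (16 higher, 6 lower, of 11091 tested; 1533 at an unadjusted p under 0.05) and 231 with a filter of 5 FPKM (419 tested). It was 91 with all 18 libraries in the fit (73 higher, 18 lower) and 40 with AY036118 level as a term (20 higher, 20 lower). Leaving out 1 library gave 145 to 783. Rescaling without AY036118, Gm42418 and Rmrp gave 365 calls, 349 higher and 16 lower, with the median of all loci shifted to 0.63. The total used for rescaling still held Gm37750, at 9137, 123478 and 44539.8 FPKM in priSG-A and 0 in priSG-B. It also held Gm47551. Both loci are shorter than a fragment, so all rescaled values depend on loci of uncertain level. The median of the B2-word loci was then 1.14 (0.50 relative to all loci), of the hosts of small nucleolar RNAs 1.96 (1.33) and of the LINE-1-word loci -0.72 (-1.36). The same-numbered libraries did not deviate together (r = -0.00325, -0.0731 and 0.0462 for numbers 1, 2 and 3), so the numbers do not pair them; with the replicate block 314 loci were called, and 463 without priSG-A replicate 3.

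Without priSG-A replicate 3, the count of 783 was 294 with a filter of 5 FPKM, 696 with no filter (241 higher, 455 lower), 301 after rescaling (291 higher, 10 lower), 499 with library weights, 32 with all 18 libraries (29 higher, 3 lower) and 31 with the AY036118 term (12 higher, 19 lower). Leaving out a further library gave 411 to 1055; the values of 909 and 1055 rest on 1 priSG-A library, assumed to vary like the priSG-B libraries. The other alternatives kept both counts within 1.5 times. Chosen after seeing the data, median-ratio scaling gave 503, leaving out loci under 300 bp 489, and leaving out loci with either repeat word 421 calls.

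For the 44 named loci, 674 of 854 values under an alternative kept direction and side of the threshold, 156 lost the call, 7 gained it and 17 reversed. With the AY036118 term the reversed log2 fold changes were Epb41l4aos -0.94, Snhg16 -0.11, Mir17hg -0.60, Dleu2 -0.25, Tug1 -0.46, H19 0.85, Meg3 0.27, Malat1 0.24, Mir99ahg 0.029, Gm42418 1.82 and AY036118 1.26. The term is built from AY036118 itself, which Gm42418 overlaps. The values of both under it are therefore no check, although they count among the 17. After rescaling the reversed log2 fold changes were H19 0.86, Neat1 0.49 and Airn 0.11. H19 also reversed with a pseudocount of 0.1 (0.12) and ranged from -2.01 to 1.28 when 1 library was left out (1.28 without priSG-A replicate 1, 0.53 without replicate 2). The cause was not tested. Depth limits loci near 1 FPKM and loci shorter than a fragment.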

Other observations

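Among the tested loci, 6 share exon sequence with histone genes, whose RNAs accompany DNA replication; they were chosen after their values were seen. Of the 6, 4 rose and none fell, and the middle of their log2 fold changes was 1.10; of all tested loci 18.2% rose, and the median was 0.02. Gm20634, at Hist2h2aa1 and Hist2h3c1, went from 37.7, 87.1 and 52.3 FPKM in priSG-A to 123, 118 and 134 FPKM in priSG-B (1.15 ± 0.35, limma adjusted p = 0.0426). 4930558J22Rik, at Hist1h4b, went from 20.2, 72.9 and 18.7 FPKM to 119, 110.2 and 131 FPKM (1.94 ± 0.53, limma adjusted p = 0.0307). Gm42743 and Gm15444 overlapped between the types. Without priSG-A replicate 3, 3 of the 6 rose, where 28.7% of all tested loci did. None of the 6 was called in the fit with all 18 libraries, where 6.05% of all were. Gm50240 holds the B2 word and stood at 100.002 FPKM in priSG-A replicate 3 against 2.53 to 3.87 FPKM in the other 5 libraries.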
